A study of Rattus norvegicus with 29 samples.

Results

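The shell of the nucleus accumbens in ethanol-naive alcohol-preferring (P) rats was described from 9 expression arrays, which were chosen as the samples whose titles carry the words water only. These were 9 of the 29 samples of the series, and the 20 samples of rats given ethanol, by continuous or by limited access, were not used. P rats are a line bred for voluntary ethanol intake, so the 9 samples show a baseline of that line and not of rats in general, and no other genotype or strain stood beside them. The labels give tissue, line and the absence of ethanol, and they give neither age nor whether each sample came from a separate animal. The spread between the 9 samples may therefore be partly technical. The design text names 10 control samples, and the remaining 1 was not analysed here. Total RNA was extracted with Trizol and RNeasy columns, and biotinylated cRNA was hybridised to Affymetrix rat arrays.

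The accumbens shell is the medial part of the ventral striatum, and most of its neurons are GABA-releasing medium spiny neurons. These neurons fall into a class that carries the D1 dopamine receptor with the peptides dynorphin and substance P, and a class that carries the D2 dopamine receptor with enkephalin and the adenosine A2a receptor. Dopamine from the ventral tegmental area and glutamate from cortex, hippocampus and amygdala converge on them. Large cholinergic interneurons and several classes of GABA interneuron make up a small share of the cells, and glia, vessels and the meninges of the basal surface complete the tissue.

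Values are on the log2 scale of RMA (robust multi-array average), so a difference of 1 is a 2-fold difference in signal. A gene was represented by the probe set (a group of short probes against 1 transcript region) with the highest mean over the 9 arrays. Only the 12 genes of largest SD, given near the end, were represented by their most variable probe set. Probe sets bind with different strength, so a level is compared only between arrays and never between genes. Spread is the standard deviation (SD) over the 9 arrays, n = 9 throughout unless stated. Probe sets in the dimmest 30 percent, with a mean at or below 6.87, were taken as not clearly above the low end of the scale. Above that limit, 614 of 11332 genes (5.42%) had an SD over 0.25, and the median gene had an SD of 0.11. Over all 21729 probe sets above the limit, 1870 (8.61%) had an SD over 0.25. In bulk tissue, fewer cells of a type and less RNA per cell cannot be told apart.

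The 9 arrays had nearly equal medians, between 8.18 and 8.21, as RMA makes them, and 0 pairs were identical, with pairwise correlations between 0.988 and 0.998. Replicate 2 was the lowest array for 1837 of 11332 genes (16.2%) and the highest for 1536 (13.6%). By these counts it was not alone, since replicate 6 was lowest for 13.7%, and replicates 9 and 5 were highest for 15.2% and 15%. Replicate 2 had the highest score, 20.5, on the second principal component, which held 19.3% of the variance, followed by replicates 5 and 6. Replicate 9 was lowest for 969 genes (8.55%). It nevertheless had 406 probe sets at least 1 log2 unit below the median of the other arrays, and replicate 7 had 135, against 4 to 21 in the other 7 arrays. Replicates 9 and 7 had the highest scores, 36.0 and 19.0, on the first component, which held 40.0% of the variance. Replicates 2, 7 and 9 are therefore treated as standing apart, and for genes whose spread rests on replicate 2, on replicate 9 or on replicates 7 and 9 together, the SD without them is given.

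The 31 gene lists held 333 genes, of which 289 were measured and 44 were not named in the platform table used here. Of the measured genes, 255 lay above the dim limit and 34 below it. An SD over 0.25 was found in 59 of the 255 (23.1%), beside 5.42% of all genes above the limit. The median SD of the 255 genes was 0.16. It was 0.14 without replicate 2, 0.16 without replicate 9 and 0.16 without replicates 7 and 9, and the number over 0.25 was 47, 56 and 52. Other probe sets of a gene could be less even than the brightest one. Of 66 list genes whose brightest probe set had an SD of at most 0.25 and that had another above the limit, 15 had another with an SD over 0.25, and in 10 of these genes such a probe set was lowest in replicate 9. Counts of genes in the lists below are on the brightest probe sets. Counts over 0.25 stand beside 5.42% of all genes, and counts lowest in replicate 2 beside 16.2%. The lists were chosen with earlier results of these data known, so these shares describe the lists and do not test an excess.

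The start sites of the 3 genes that define a cholinergic neuron are shown because these genes shared their lowest and their highest array, as described under acetylcholine. Chat encodes the enzyme that makes acetylcholine, Slc18a3 the vesicular transporter that loads it and Slc5a7 the transporter that takes up choline. Each line gives 250 bases before and 50 after the annotated start, 5′ to 3′ on the strand of the gene, from RefSeq on build GRCr8, and capitals mark the matches to 3 motifs that were searched on both strands.
Chat, chr16:7723367-7723666, minus strand: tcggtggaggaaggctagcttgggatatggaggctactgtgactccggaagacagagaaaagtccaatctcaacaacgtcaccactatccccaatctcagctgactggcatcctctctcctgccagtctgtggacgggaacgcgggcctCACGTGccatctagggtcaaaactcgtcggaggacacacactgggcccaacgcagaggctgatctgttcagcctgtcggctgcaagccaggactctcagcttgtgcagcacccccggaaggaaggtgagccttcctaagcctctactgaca
Slc18a3, chr16:7722765-7723064, minus strand: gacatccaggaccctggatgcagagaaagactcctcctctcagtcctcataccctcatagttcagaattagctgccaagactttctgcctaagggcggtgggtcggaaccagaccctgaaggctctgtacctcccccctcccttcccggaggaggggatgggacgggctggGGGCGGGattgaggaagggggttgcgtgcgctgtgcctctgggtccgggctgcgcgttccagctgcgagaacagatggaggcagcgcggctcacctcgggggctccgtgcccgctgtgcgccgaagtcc
Slc5a7, chr9:7953460-7953759, minus strand: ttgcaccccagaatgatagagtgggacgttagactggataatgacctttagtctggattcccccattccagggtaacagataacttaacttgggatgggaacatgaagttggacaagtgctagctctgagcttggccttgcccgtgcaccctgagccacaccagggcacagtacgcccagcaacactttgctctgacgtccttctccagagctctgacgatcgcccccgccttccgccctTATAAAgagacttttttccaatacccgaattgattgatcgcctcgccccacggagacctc
The annotated starts of Chat and Slc18a3 lie 602 bases apart on the same strand, in the cholinergic gene locus in which Slc18a3 sits within the Chat gene, while Slc5a7 is on another chromosome. The motifs were TATAAA, the E-box CACGTG and the GC box GGGCGGG, none of which overlapped another here. The Chat window held 1 E-box, a motif found in 6.42% of 33469 promoters. The Slc18a3 window held 1 GC box, which 22.7% of promoters hold, and the Slc5a7 window held TATAAA 10 bases before the start, which 14.2% hold. The 3 windows thus shared none of these motifs.

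Of 6 markers of medium spiny neurons (Ppp1r1b, Drd1, Drd2, Penk, Pdyn and Tac1), all 6 lay above the dim limit. So did 11332 of all 14217 genes, so passing the limit does not test the label of the tissue. Ppp1r1b encodes DARPP-32, the phosphatase inhibitor that integrates dopamine and glutamate signals. Its values were lowest at 12.43, with a median of 12.61 and a highest value of 12.68 (mean 12.59 ± 0.07, SD). Drd1, the D1 receptor, ran from 11.79 over a median of 12.15 to 12.43 (12.15 ± 0.17). Drd2, the D2 receptor, ran from 9.70 over 10.07 to 10.26 (10.05 ± 0.16). The peptide precursors had SDs between 0.11 and 0.31. Penk, which gives the enkephalins, ran from 13.32 over 13.54 to 13.71 (13.56 ± 0.11). Tac1, the substance P precursor, ran from 12.15 over 12.48 to 12.58 (12.44 ± 0.13). Pdyn, the dynorphin precursor, ran from 11.22 over 12.09 to 12.32 (12.01 ± 0.31).

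All 6 markers were lowest in replicate 2, which by the background is the lowest array for 16.2% of genes. The size of the gap differed from marker to marker. Pdyn in replicate 2 was 0.87 below the median of the other 8 arrays, a 1.83-fold lower signal. Those 8 lay between 12.01 and 12.32. Without replicate 2 the SD of Pdyn was 0.10. Drd1 was 0.37 lower and Drd2 0.38 lower in replicate 2, Tac1 0.34, Penk 0.25 and Ppp1r1b 0.19. A second probe set of Drd1 (10.45 ± 0.22) and of Pdyn (8.80 ± 0.39) was also lowest in replicate 2. Replicate 5 was at the other end, the highest array for Drd1, Drd2, Penk, Pdyn and Tac1.

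**Figure D1:**
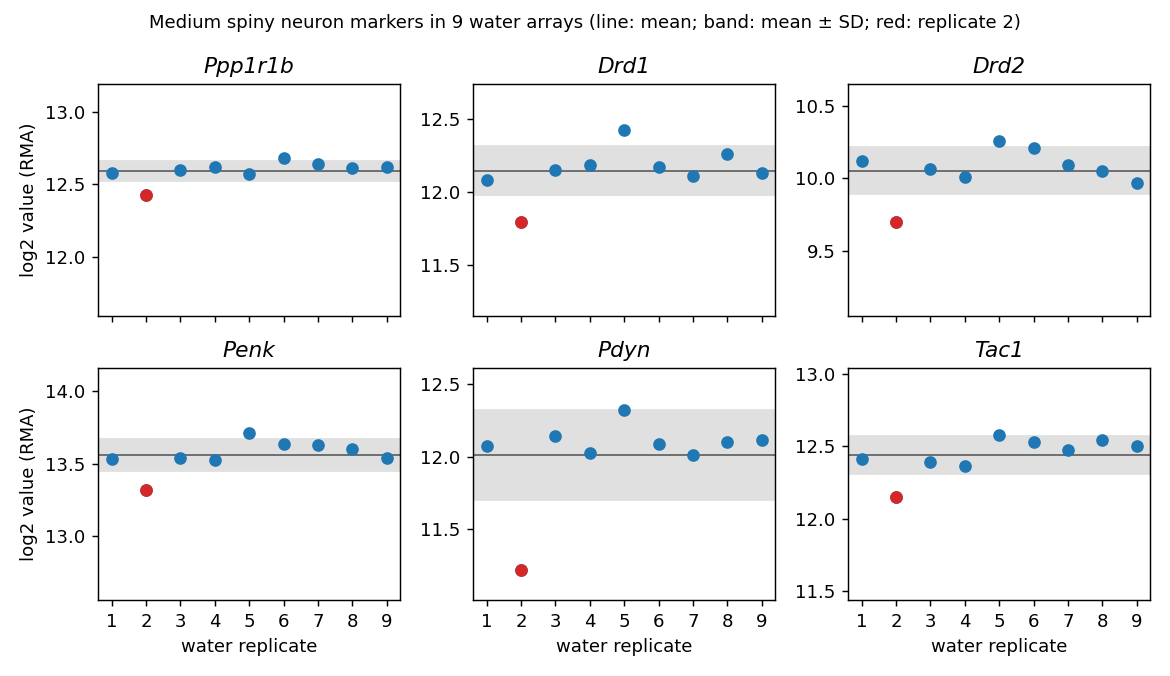
Log2 RMA values (vertical axis, the same span in each panel) of 6 medium spiny neuron markers in the 9 water arrays (horizontal axis, replicate number); points are arrays, the line is the mean and the band the mean ± SD. Replicate 2, in red, was the lowest array in each of the 6 panels, by most for Pdyn at 11.22.

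The shared genes of medium spiny neurons were about as even between arrays as all genes above the limit. Of 22 listed, 21 were measured, all above the limit, with a median SD of 0.11, beside 0.11 for all genes. An SD over 0.25 was found in 4.76% of the 21, beside 5.42% of all genes. Only Foxp1, a transcription factor of striatal neurons, had an SD over 0.25, with values from 10.54 over 11.06 to 11.19 (10.96 ± 0.25). It was lowest in replicate 7 on its brightest probe set and on 4 others, and its SD was 0.16 without replicates 7 and 9. Ptpn5, the striatum-enriched phosphatase STEP, had 11.97 ± 0.09. Adcy5, the main adenylyl cyclase of striatum, had 10.23 ± 0.11, and Gnal, the stimulatory G protein subunit that couples to it, 11.29 ± 0.09. Rgs9, a regulator of G protein signalling, had 11.32 ± 0.11. Replicate 2 was the lowest array for 14 of the 21 genes, beside 16.2% of all genes. The mean deviation of the 21 genes from their own means in it was -0.18.

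Pde10a, the cyclic nucleotide phosphodiesterase of medium spiny neurons, did not follow replicate 2. Its lowest value, 11.75, was in replicate 9 and its highest, 12.52, in replicate 5 (12.29 ± 0.24). Without replicate 9 its SD was 0.13. A second Pde10a probe set (10.94 ± 0.33) was also lowest in replicate 9, at 10.33. Bcl11b encodes CTIP2, a transcription factor that medium spiny neurons need to mature. Its brightest probe set had 12.06 ± 0.18 with 12.21 in replicate 9, whereas its other probe sets, at 11.12 ± 0.70 and 8.70 ± 0.71, were lowest in replicate 9, at 9.88 and 7.22.

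Direct-pathway genes, those of the D1 class, had a median SD of 0.15 over 8 measured genes, and 0.10 without replicate 2. Pdyn was the only one over 0.25. Slc35d3, a transporter-like protein of D1 neurons, had 8.99 in replicate 2 and lay between 9.41 and 9.61 in the others, with an SD of 0.19, and 0.06 without replicate 2. Chrm4, the M4 muscarinic receptor that opposes D1 signalling, had 9.20 ± 0.09 and was not low in replicate 2, where it was 9.20. Replicate 2 was lowest for 4 of the 8 genes and replicate 5 highest for 5, beside 15% of all genes for replicate 5. Isl1, a transcription factor of developing D1 neurons, had its highest value, 9.32, in replicate 5.

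Indirect-pathway genes, those of the D2 class, all had their lowest value in replicate 2, in 5 of the 5 genes above the limit. Adora2a, the A2a receptor, had 9.88 in replicate 2 and lay between 10.38 and 10.61 in the other 8 arrays, a 1.57-fold difference from their median. Gpr6, an orphan receptor of D2 neurons, had 9.05 against 9.51 to 9.86, and Ptprm, a receptor phosphatase, 9.33 against 9.69 to 9.98. None of the 5 genes had an SD over 0.25. Their median SD was 0.19, and 0.10 without replicate 2, where Adora2a had 0.09, Gpr6 0.11 and Ptprm 0.10. Upb1 lay below the limit (5.78 ± 0.20).

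The ventral striatal list, genes noted for their expression in the accumbens, had the same low array. Replicate 2 was lowest for 5 of the 6 above the limit, beside 16.2% of all genes. The mean deviation of the 6 in it was -0.46. Nts, the neurotensin precursor, had 8.91 in replicate 2 and 10.04 to 10.55 in the others (10.18 ± 0.50, and an SD of 0.17 without replicate 2). Cartpt, the precursor of the CART peptides, had 11.40 in replicate 2, a median of 11.91 and a highest value of 12.17. Calb1, the calcium buffer calbindin, had 11.67 ± 0.18. Crym, a thyroid hormone binding protein, was lowest in replicate 7, at 12.32, with 12.51 in replicate 2. Drd3, the D3 receptor, lay below the dim limit at 5.17 ± 0.12, and so did Dlk1 at 6.69 ± 0.20.

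**Figure D2:**
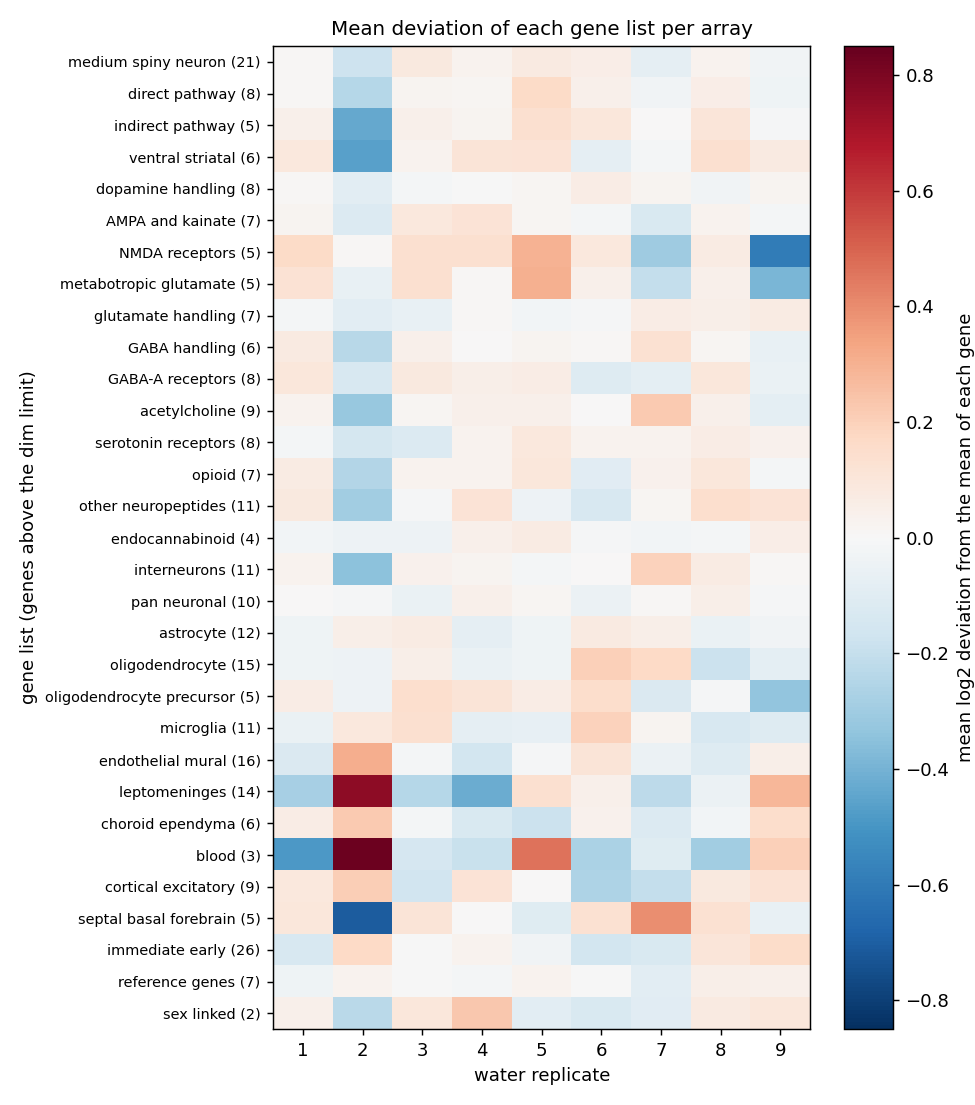
Mean deviation of the genes of each list from their own means (colour, log2 units) in each water array (columns); rows are gene lists with the number of genes above the dim limit in brackets. Replicate 2 combined the lowest values of the indirect pathway, ventral striatal and septal lists with the highest values of the leptomeningeal and blood lists, and replicate 9 had the lowest values of the NMDA and metabotropic glutamate receptor lists.

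Dopamine genes outside the D1 and D2 receptors were near the low end of the scale or even. Dopamine neurons have their cell bodies in the midbrain, and a link of this to the levels here was not tested. Slc6a3, the dopamine transporter, lay below the limit at 6.74 ± 0.10, and Drd5 below it at 6.05 ± 0.20. Drd4 had 7.44 ± 0.12. Th, the rate-limiting enzyme of dopamine synthesis, lay between 7.39 and 7.66 in 8 arrays and at 8.004 in replicate 9 (7.58 ± 0.18, with an SD of 0.08 without that array). Slc6a3 was also highest in replicate 9, at 6.89, though below the limit. Slc18a2, the vesicular monoamine transporter, was not highest there, with 7.89 in replicate 9 and 7.97 in replicate 7. Among degrading enzymes Maoa had 10.79 ± 0.18, the largest SD of the 8 genes above the limit, with its lowest values in replicates 9 (10.46) and 7 (10.52) and an SD of 0.08 without both. Maob had 11.72 ± 0.12. The brightest probe set of Ddc, which makes dopamine from its precursor, had 9.53 ± 0.13, with 9.69 in replicate 9 and 9.71 in replicate 6. A second probe set of Ddc had an SD of 0.26 and was lowest in replicate 9, at 7.69.

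Glutamate receptor genes held some of the largest spreads of the lists. Grin1, the obligatory NMDA receptor subunit, was even at 11.39 ± 0.06. Grin2a, a subunit that sets the kinetics of the receptor, ran from 8.09 in replicate 9 and 9.03 in replicate 7 over a median of 10.27 to 10.86 in replicate 5 (9.97 ± 0.87, with an SD of 0.54 without replicate 9 and 0.27 without replicates 7 and 9). Grin2b, the alternative subunit, had 8.11 in replicate 9 and 8.23 in replicate 7, with a median of 9.14 and a highest value of 9.60 (9.002 ± 0.50, with an SD of 0.40 without replicate 9 and 0.19 without both). These were the 2 lowest arrays for both genes, and how many genes of the whole table share this was not counted. Of 5 NMDA receptor genes above the limit, 2 had an SD over 0.25, beside 5.42% of all genes.

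Other probe sets of these genes shared this in part. A second Grin2a probe set above the limit (7.23 ± 0.12) had its highest value, 7.37, in replicate 9, whereas another, below the limit, was lowest in replicates 7 (5.30) and 9 (5.46). A second Grin2b probe set (7.90 ± 0.13) had 7.91 in replicate 9 and its lowest value, 7.68, in replicate 7. Gria2, the AMPA receptor subunit that limits calcium entry, had 12.28 in replicate 7 and 12.33 in replicate 9 against a median of 12.95 (12.90 ± 0.35, with an SD of 0.30 without replicate 9 and 0.14 without both), while its second probe set (12.80 ± 0.14) was highest in replicate 9, at 12.99. Which probe set follows the transcript was not tested.

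Among metabotropic receptors, Grm5, the mGlu5 receptor of medium spiny neurons, had 8.71 in replicate 9 and 9.13 in replicate 7, with a median of 9.97 and a highest value of 10.49 (9.84 ± 0.57, with an SD of 0.42 without replicate 9 and 0.26 without replicates 7 and 9). Here the second probe set (8.49 ± 0.36) was low in the same arrays, at 7.90 and 8.09, and highest in the same array, replicate 5. Grm3, a receptor of astrocytes and presynaptic terminals, had 10.49 in replicate 9, a median of 11.58 and a highest value of 11.94 (11.48 ± 0.44, with an SD of 0.25 without replicate 9 and 0.15 without replicates 7 and 9). Grm2 and Grm6 lay below the limit. Gria1, another AMPA subunit, had 9.65 ± 0.21, and Grik5, a kainate receptor subunit, 9.76 ± 0.14 with its highest value, 10.01, in replicate 9. Grik1 lay just below the limit at 6.79 ± 0.15.

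**Figure D3:**
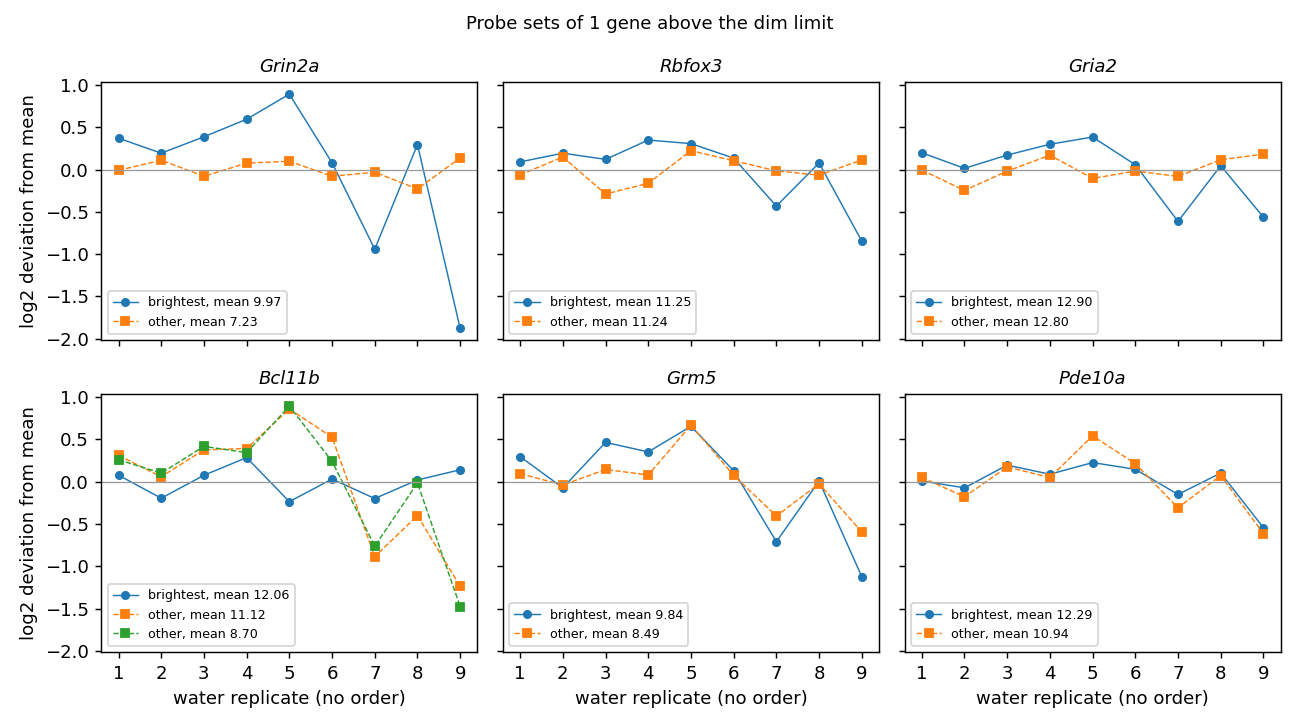
Log2 deviation from the probe set mean (vertical axis) in each water array (horizontal axis; lines only join points of 1 probe set) for all probe sets above the dim limit of 6 genes; solid lines are the brightest probe set and broken lines the others. Replicate 9 was low on the brightest probe set of Grin2a, Rbfox3 and Gria2 but not on their second one, low on the dimmer probe sets of Bcl11b but not on the brightest, and low on both probe sets of Grm5 and Pde10a.

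Glutamate transport and synthesis genes were mostly even. Slc1a3, the glial transporter GLAST, had 14.02 ± 0.06, with 0.26 on another probe set that was lowest in replicate 9, Glul, glutamine synthetase, 13.88 ± 0.07, and Slc1a2, the transporter GLT-1, 8.47 ± 0.10. The vesicular transporters were the exceptions. Slc17a6 (VGLUT2), a marker of subcortical excitatory neurons, had 8.25 in replicate 2, a median of 9.18 and 9.73 in replicate 7 (9.13 ± 0.41, with an SD of 0.26 without replicate 2). Slc17a7 (VGLUT1), a marker of cortical excitatory neurons, had 10.88 in replicate 3, a median of 11.40 and 11.70 in replicate 8 (11.35 ± 0.29).

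The GABA phenotype that marks the output neurons had the same low array. Gad1, the larger GABA-synthesising enzyme, had 13.24 in replicate 2 and 13.66 to 13.83 in the others (13.67 ± 0.17). Its second probe set (10.02 ± 0.26) had 9.41 in replicate 2. Gad2, the smaller enzyme, had 9.31 against 9.65 to 10.01 (9.76 ± 0.21). Slc32a1, the vesicular GABA transporter, had 10.45 against 10.82 to 11.23 (10.93 ± 0.21). None of the 6 genes above the limit in this list had an SD over 0.25, and without replicate 2 the SDs of Gad1, Gad2 and Slc32a1 were 0.06, 0.13 and 0.12. Dimmer probe sets of 2 members were less even. One of Gabbr1, a GABA-B receptor subunit, had 8.99 in replicate 9 (10.42 ± 0.65), and one of Abat, the enzyme that degrades GABA, had 7.40 there (8.37 ± 0.40). The GABA-A receptor genes had a median SD of 0.18 over 8 genes, beside 0.11 for all genes. Gabra3 was the only one over 0.25 on the brightest probe set, between 7.49 in replicate 6 and 8.27 in replicate 1 (7.91 ± 0.27). Gabra2 had 9.77 ± 0.21, Gabra4, a subunit of extrasynaptic receptors in striatum, 9.35 ± 0.21 and Gabrd, which pairs with it there, 10.63 ± 0.06. A second probe set of Gabrb2 had 7.03 in replicate 9 (8.14 ± 0.46).

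Of 9 acetylcholine genes above the limit, 4 had an SD over 0.25, beside 5.42% of all genes, and 4 without replicate 2. Slc5a7 had 8.69 in replicate 2, a median of 10.27 and 10.80 in replicate 7 (10.11 ± 0.59). Chat had 8.25 in replicate 2, a median of 9.42 and 10.00 in replicate 7 (9.31 ± 0.49). Slc18a3 had 7.48 in replicate 2, a median of 7.87 and 8.49 in replicate 7 (7.90 ± 0.29). The 3 genes thus had the same lowest and the same highest array. Replicate 2 was lowest for 16.2% of all genes and replicate 7 highest for 12%. In replicate 2 the signal was 3.06-fold below the median of the other arrays for Slc5a7, 2.29-fold for Chat and 1.33-fold for Slc18a3. Chat and Slc18a3 share the locus printed above and Slc5a7 lies on another chromosome. Without replicate 2 the SD of Chat was 0.31, that of Slc5a7 0.27 and that of Slc18a3 0.26.

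Ngfr, the p75 neurotrophin receptor carried by cholinergic neurons of the septum and basal forebrain, had the same extremes, 6.44 in replicate 2 and 8.22 in replicate 7 (7.52 ± 0.52, with an SD of 0.35 without replicate 2). Zic1, a transcription factor of septum, did not share them (7.25 ± 0.15, with 7.21 in replicate 2 and 7.23 in replicate 7). Of 8 genes in the septal and basal forebrain list, 5 were above the limit, and 4 of these, Chat and Slc17a6 among them, were lowest in replicate 2. Chrm3, the M3 receptor, had its lowest value, 8.28, in replicate 9 and its highest, 9.61, in replicate 1 (9.12 ± 0.44, with an SD of 0.33 without replicate 9). Chrm1 and Chrm2 lay below the limit, at 6.77 ± 0.14 and 6.46 ± 0.12.

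**Figure D4:**
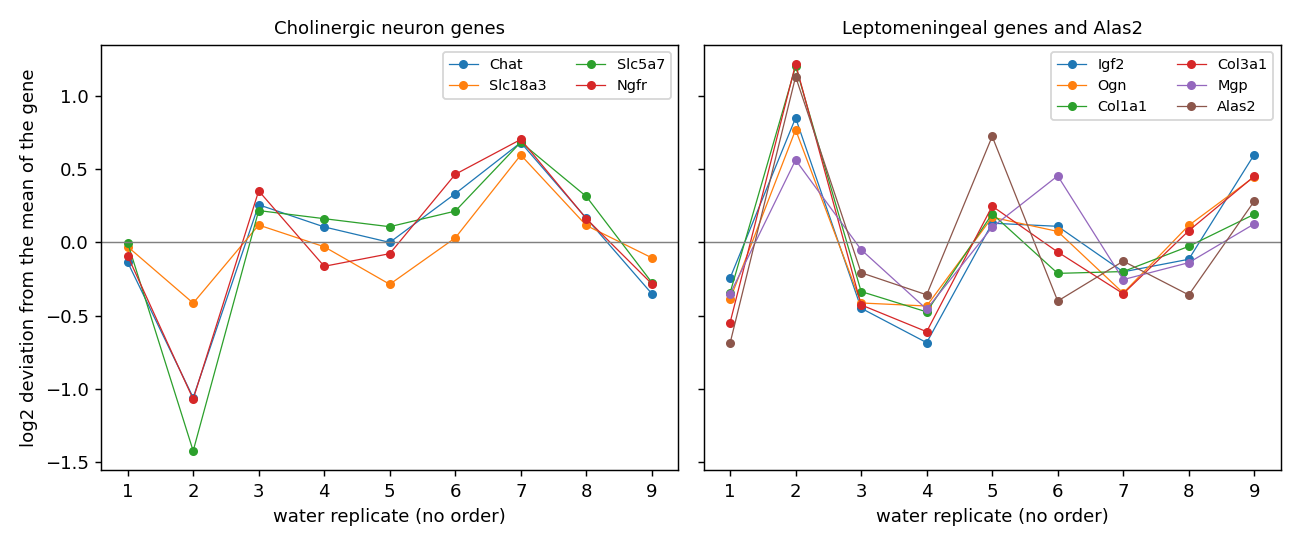
Log2 deviation from the mean of each gene (vertical axis) in each water array (horizontal axis; lines only join points of 1 gene) for cholinergic neuron genes on the left and leptomeningeal genes with Alas2 on the right. Chat, Slc18a3, Slc5a7 and Ngfr were lowest in replicate 2 and highest in replicate 7, and Igf2, Ogn, Col1a1, Col3a1, Mgp and Alas2 were highest in replicate 2.

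Of the serotonin receptors, Htr2c, the 5-HT2C receptor, had 12.42 in replicate 2 and 12.86 to 13.12 in the others (12.92 ± 0.21, with an SD of 0.09 without replicate 2). A second Htr2c probe set correlated with it at r = 0.92. Htr2a, the 5-HT2A receptor of cortical and striatal neurons, had 8.88 in replicate 3, a median of 9.31 and 9.57 in replicate 9 (9.24 ± 0.28), and was the only 1 of the 8 receptors above the limit with an SD over 0.25. Htr1b lay below the limit at 6.48 ± 0.12.

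Opioid receptors and peptides are of interest in this region because the shell is a site of opioid effects on reward. Oprk1, the kappa receptor at which dynorphin acts, had 8.11 in replicate 2 and 8.59 to 9.10 in the others (8.77 ± 0.29, with an SD of 0.16 without replicate 2), so the receptor and Pdyn shared their lowest array, and both were highest in replicate 5. Oprm1, the mu receptor, lay just above the limit at 6.96 ± 0.12 and was highest in replicate 2, at 7.10. Oprd1, the delta receptor, lay below it at 6.17 ± 0.11. Pnoc, the nociceptin precursor, had 8.38 ± 0.24 and its receptor Oprl1 8.84 ± 0.17. In the list, 2 of 7 genes had an SD over 0.25, Pdyn and Oprk1, and 0 of 7 without replicate 2.

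Peptides of interneurons differed in spread. Sst (somatostatin) had 12.62 ± 0.11 and Npy (neuropeptide Y) 12.09 ± 0.10, and these mark the same interneuron class. Nos1, the nitric oxide synthase of that class, lay near the limit at 6.89 ± 0.13. Pvalb, the marker of fast-spiking interneurons, had 10.49 ± 0.12. Calb2 (calretinin) had 8.84 in replicate 2 and 9.95 in replicate 7, with the other 7 between 9.43 and 9.60 (9.48 ± 0.29, with an SD of 0.17 without replicate 2), the same 2 extreme arrays as for Chat. Cck (cholecystokinin) had 13.09 in replicate 7, 13.24 in replicate 6 and 13.38 to 13.79 in the others (13.51 ± 0.23). Vip had 9.04 and 9.10 in replicates 7 and 6 and 9.54 to 9.79 in the others (9.51 ± 0.26). Grp, the gastrin-releasing peptide precursor, was low in replicates 5 (6.65) and 2 (6.70) and between 7.08 and 7.89 elsewhere (7.42 ± 0.48).

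The endocannabinoid genes were about as even as all genes on their brightest probe sets, with a median SD of 0.11 beside 0.11. Cnr1, the CB1 receptor, had 12.16 ± 0.18 with its lowest value, 11.87, in replicate 2 and its highest, 12.44, in replicate 4. Mgll, which degrades 2-arachidonoylglycerol, had 10.83 ± 0.08. Of its other probe sets, 2 of 3 were less even, at 9.81 ± 0.57 with 8.69 in replicate 9 and 9.05 in replicate 7, and at 9.97 ± 0.33 with 9.27 in replicate 9. None of the 4 measured genes had an SD over 0.25 on the brightest probe set, and Faah and Dagla were not named in the platform table.

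General neuronal genes as a list were not low in replicate 2. Snap25, a core protein of vesicle release, ran from 14.71 over 14.77 to 14.81 (14.77 ± 0.04), and Syt1, the calcium sensor of release, had 11.997 ± 0.15. The mean deviation of the 10 genes in replicate 2 was -0.01. Replicate 2 was the lowest array for 2 of the 10, beside 16.2% of all genes. These were Snap25, at 14.71, and Eno2, at 13.14 against 13.22 to 13.39 elsewhere. Rbfox3, the NeuN antigen, was the only one with an SD over 0.25 (11.25 ± 0.39), with 10.40 in replicate 9 and 10.82 in replicate 7, and its SD was 0.24 without replicate 9 and 0.11 without both. Its second probe set (11.24 ± 0.16) had 11.36 and 11.23 in those arrays.

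Astrocyte genes were the most even of the cell type lists by median SD, which was 0.08 over 12 genes. On the brightest probe sets 0 were over 0.25, beside 5.42% of all genes. Their median signal was 13.47, beside 9.70 for all genes above the limit, and a dependence of the SD on signal was not tested. A dimmer probe set of Slc4a4, a bicarbonate transporter, was less even, with 7.87 in replicate 9 (9.15 ± 0.56). So was one of Slc1a3, with 7.74 in replicate 9 (8.20 ± 0.26). Gja1, a connexin of astrocyte gap junctions, ran from 14.17 over 14.25 to 14.27 (14.24 ± 0.03). Aqp4, the water channel of astrocyte endfeet, had 13.55 ± 0.07 and Gfap, the intermediate filament, 13.39 ± 0.16, both highest in replicate 6. Aldh1l1 had 9.72 ± 0.14. Gjb6, another connexin, had the largest SD of the list, with 11.49 in replicate 2 and 10.75 to 11.19 elsewhere (11.003 ± 0.23).

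Oligodendrocyte genes were high in replicates 6 and 7 and low in replicate 8. Replicate 6 was highest for 8 of 15 genes, replicate 7 for 5, and replicate 8 lowest for 6, beside 13.1%, 12% and 6.33% of all genes. Mbp, the basic protein of myelin, had 15.34 ± 0.05, close to the top of the scale. A dimmer Mbp probe set was less even, with its lowest value, 10.86, in replicate 9 (11.39 ± 0.26). Mog, a myelin surface protein, had 11.72 in replicate 6, 11.64 in replicate 7, 11.35 in replicate 8 and 11.29 in replicate 9 (11.49 ± 0.14). Mag, the myelin-associated glycoprotein, had 11.21 in replicate 7 and 10.67 in replicate 8 (10.90 ± 0.17). On the brightest probe sets, Fa2h, which makes the hydroxylated lipids of myelin, was the only one over 0.25. It ran from 9.84 in replicate 9 to 10.65 in replicate 6 (10.24 ± 0.27). Among precursor genes, Pdgfra had 11.73 ± 0.09 with 11.95 in replicate 2, and Cspg4 (NG2) 7.90 ± 0.16 with 8.26 in replicate 6. Tnr, an extracellular matrix protein, had 6.997 in replicate 9 and 7.84 in replicate 7 against a median of 8.63 (8.35 ± 0.59, with an SD of 0.32 without replicate 9 and 0.18 without both).

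Microglial genes were highest in replicate 6 for 6 of 11 and lowest in replicate 8 for 5, beside 13.1% and 6.33% of all genes. C1qa, a complement component, had 11.48 in replicate 6 and 10.94 in replicate 8 (11.18 ± 0.19). Csf1r, the growth factor receptor on which microglia depend, had 10.12 and 9.72 in these arrays (9.87 ± 0.13). Aif1 (Iba1) was highest in replicate 2, at 10.43 (10.19 ± 0.15), and Cx3cr1, the fractalkine receptor, had 8.06 in replicate 5 and 8.33 to 8.58 elsewhere (8.41 ± 0.16). Itgam had an SD just over 0.25, from 7.39 in replicate 9 to 8.34 in replicate 6 (7.84 ± 0.25).

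Vessel genes were highest in replicate 2 for 10 of 16, beside 13.6% of all genes. Cldn5, the tight junction protein of brain endothelium, had 12.15 in replicate 2 and 11.56 to 11.88 in the others (11.75 ± 0.19). Slc2a1, which carries glucose across brain endothelium, had 11.78 there (11.52 ± 0.14), Flt1, a VEGF receptor, 7.76 (7.59 ± 0.10), and Acta2, the smooth muscle actin, 9.37 (8.94 ± 0.25). Tagln, another smooth muscle gene, ran from 10.21 in replicate 4 over 10.70 to 11.55 in replicate 2 (10.73 ± 0.44). Pdgfrb, the pericyte receptor, did not share this (8.08 ± 0.06, with 8.12 in replicate 2). In all, 5 of 16 had an SD over 0.25, beside 5.42% of all genes, and 4 without replicate 2.

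Leptomeningeal genes, which are expressed by the fibroblasts of the membranes on the brain surface, had spreads over 0.25 more often than not. Of 15 listed, 14 were above the limit. Of these, 12 had an SD over 0.25, beside 5.42% of all genes, or 8 without replicate 2. Their median SD was 0.40, and 0.27 without replicate 2. Igf2, a growth factor made by these membranes, ran from 11.35 in replicate 4 over a median of 11.92 to 12.89 in replicate 2, with 12.64 in replicate 9 (12.04 ± 0.49, and an SD of 0.39 without replicate 2). Ogn, a small proteoglycan, ran from 11.80 in replicate 4 over 12.31 to 13.003 in replicate 2 (12.23 ± 0.43, and 0.34 without it). Col1a1, a fibrillar collagen, had 10.55 in replicate 2 and 8.87 to 9.54 in the others (9.35 ± 0.51, with an SD of 0.25 without replicate 2), so replicate 2 stood 2.66-fold above their median. Col3a1, another collagen, had 11.54 against 9.71 to 10.77 (10.32 ± 0.59, and 0.39 without replicate 2), and Mgp, a matrix protein, 12.87 against 11.85 to 12.76 (12.31 ± 0.35, and 0.30 without it). Second probe sets of Ogn, Col1a1 and Col1a2 correlated with the brightest at r = 0.96, 0.96 and 0.97. Replicate 2 was highest for 13 of the 14 genes and replicate 4 lowest for 11, beside 13.6% and 12.3% of all genes, with mean deviations of 0.76 and -0.42. Without replicate 2 the spread was therefore smaller but still above 0.25 for most of the list.

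Blood genes followed the same array. Hbb, a globin of red cells, had 15.05 in replicate 2 and 14.14 to 14.83 elsewhere (14.53 ± 0.28, and an SD of 0.21 without replicate 2). Alas2, the haem synthesis enzyme of red cell precursors, ran from 7.89 in replicate 1 over 8.38 to 9.72 in replicate 2, with 9.31 in replicate 5 (8.58 ± 0.60, and 0.45 without replicate 2). The 3 blood genes above the limit were highest in replicate 2 and lowest in replicate 1, which was lowest for 8.45% of all genes. Of 10 measured choroid plexus and ependymal genes, 6 lay above the limit. Of these, 4 had an SD over 0.25, beside 5.42% of all genes, or 2 without replicate 2. Aqp1, a water channel of choroid plexus, had 9.59 in replicate 2 (8.74 ± 0.35), and Rarres2, the chemerin precursor, 11.89 (11.32 ± 0.27), the highest value of each. Folr1 and Foxj1 lay below the limit, at 6.78 ± 0.13 and 5.65 ± 0.11. Ttr, a protein that choroid plexus makes in bulk, had 7.81 in replicate 5, a median of 8.77 and 9.28 in replicate 9 (8.66 ± 0.43). In replicate 2, Ttr, Kcne2, Enpp2 and Tmem212 lay 0.08, 0.04, -0.07 and -0.14 from the median of the other 8 arrays. Of the 6 genes, only Aqp1 and Rarres2 were thus high in replicate 2.

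Replicate 2 thus combined low values of medium spiny, GABA and cholinergic neuron genes with high values of leptomeningeal, vascular and blood genes. Cortical neuron genes were less uniform there, with Rprm 0.66 above the median of the other arrays and Neurod6 0.30 below. General neuronal and astrocyte genes as lists were near their means. The mean deviations in replicate 2 were -0.24 for the direct pathway and -0.43 for the indirect pathway. They were 0.31 for vessels, 0.76 for leptomeninges, 0.83 for blood, 0.22 for choroid plexus and ependyma and 0.21 for cortical excitatory neurons. The value for choroid plexus and ependyma came mainly from Aqp1 and Rarres2. The share of each cell type in the dissected tissue was not measured, and its part in these values was not tested.

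Markers of cortical excitatory neurons, which adjoin the region, were lowest in replicate 6 for 5 of 9 genes and in replicate 3 for 3, beside 13.7% and 8.29% of all genes. Their mean deviations were -0.26 in replicate 6, -0.20 in replicate 7 and -0.16 in replicate 3. The highest was 0.21 in replicate 2, which was highest for 3 of the 9. Neurod6, a transcription factor of cortical projection neurons, had 9.39 in replicate 6 and 9.44 in replicate 7 against 9.69 to 10.21 in the others (9.88 ± 0.31). Tbr1, another, had 6.79 in replicate 3 and 7.47 in replicate 9 (7.09 ± 0.21). Cck and Vip, given above, were low in the same replicates 6 and 7. Rprm was high in replicate 2, at 11.86 against 10.97 to 11.30 elsewhere, with an SD of 0.24, and 0.10 without that array. Neurod6 was 0.30 below the median of the other 8 arrays in replicate 2. The rest of the list lay above it there, from 0.03 for Neurod1 to 0.66 for Rprm.

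Immediate-early genes, which neurons and other cells switch on within minutes of stimulation, showed a moderate spread, with a median SD of 0.18. Of 26, 7 had an SD over 0.25, beside 5.42% of all genes. Fos ran from 9.91 in replicate 6 over 10.39 to 10.58 in replicate 4 (10.26 ± 0.27). Replicates 1, 5, 6 and 7 had 9.91 to 10.10 and the other 5 arrays 10.39 to 10.58, but a second Fos probe set correlated with the first at only r = 0.04. Nr4a1, an orphan nuclear receptor, had 10.27 ± 0.13 and Egr1 13.19 ± 0.13, and Junb was even at 9.66 ± 0.06. Arc, which acts at synapses, did not have the same order, with 9.52 to 9.55 in replicates 8, 1 and 4 and 9.78 to 10.03 in the others (9.79 ± 0.21). Klf4 had the largest SD, from 8.34 in replicate 1 to 9.41 in replicate 2 (8.84 ± 0.35). Nr4a2, which is also a marker of deep cortical neurons, had 7.99 and 8.03 in replicates 6 and 7 and 8.45 to 8.96 elsewhere (8.56 ± 0.34). Replicates 2 and 9 were highest for 9 genes each, beside 13.6% and 15.2% of all genes, and replicate 7 was lowest for 9 and replicate 6 for 8, beside 12.6% and 13.7%. The labels give no time between handling and dissection.

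Genes often used as references had a median SD of 0.08, beside 0.11 for all genes above the limit. Of the 7 measured, 0 had an SD over 0.25, which beside 5.42% of all genes does not set them apart. Hprt1 had 12.33 ± 0.12 and Sdha, a mitochondrial enzyme, 12.59 ± 0.02. Rplp0, a ribosomal protein, had the largest SD, with 13.32 in replicate 7 and 13.73 in replicate 2 (13.54 ± 0.13). Actb, Gapdh and Ppia were not named in the platform table. The genes Eif2s3y (10.55 ± 0.15) and Uty (9.54 ± 0.16) of the Y chromosome were above the limit in all 9 arrays, and Xist, which is expressed from an inactive X chromosome, lay below it (5.47 ± 0.20).

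Whether markers vary together was asked for 25 pairs of genes, of which 23 could be tested across the 9 arrays by exact two-sided permutation tests of Pearson's r, with Benjamini-Hochberg adjustment over these 23 pairs. The adjusted threshold was passed by 11 pairs, and by 4 with Spearman's rho. The largest r was that of Chat with Slc5a7, at 0.97 (exact p = 6.1e-05, adjusted p = 0.00070) and rho = 0.93 (exact p = 0.00075, adjusted p = 0.0086). Without the arrays farthest from the median of Chat, replicates 2 and 7, r was 0.92. Igf2 with Ogn had a smaller exact p and a higher rho, with r = 0.95 (exact p = 3.3e-05, adjusted p = 0.00070) and rho = 0.98 (exact p = 5.0e-05, adjusted p = 0.0011), and r = 0.84 without replicates 2 and 9. Mog with Mag had r = 0.85 (exact p = 0.0039, adjusted p = 0.015) and rho = 0.88 (exact p = 0.0031, adjusted p = 0.024), and r = 0.83 without replicates 6 and 7. These were the 3 pairs whose unadjusted exact p remained under 0.05 without the 2 farthest arrays.

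The pairs of medium spiny neuron genes had lower r without the farthest arrays, mostly replicates 2 and 5. Penk with Tac1, peptides of different classes, had r = 0.94 (exact p = 0.00062, adjusted p = 0.0048) and rho = 0.85 (exact p = 0.0061, adjusted p = 0.035), and r = 0.74 without replicates 2 and 5. Drd2 with Penk, markers of 1 class, had r = 0.93 (exact p = 0.0016, adjusted p = 0.0089) and rho = 0.78 (exact p = 0.017, adjusted p = 0.079), and r = 0.60 without them. Drd1 with Drd2, markers of different classes, had r = 0.83 (exact p = 0.015, adjusted p = 0.035) and rho = 0.38 (exact p = 0.31, adjusted p = 0.45), and r = -0.13 without them. Drd1 with Tac1, Drd1 with Pdyn, Tac1 with Pdyn, Drd2 with Adora2a and Penk with Adora2a had r between 0.85 and 0.90 and adjusted exact permutation p between 0.015 and 0.035. Without the farthest arrays (replicates 2 and 5, or 2 and 4 for Tac1 with Pdyn) these 5 had r between 0.13 and 0.48. Without replicate 2 alone, 2 of the 11 pairs passed, Chat with Slc5a7 and Igf2 with Ogn, and without replicate 5 alone 3 passed. With 8 arrays, r without replicate 2 was still 0.85 for Mog with Mag, 0.82 for Penk with Tac1, 0.81 for Drd1 with Pdyn and 0.79 for Drd2 with Penk, and it was 0.41 to 0.64 for the other 5 pairs.

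The other 12 pairs did not pass after adjustment. Drd1 with Chrm4, both of the D1 class, had r = 0.50 (exact p = 0.17, adjusted p = 0.19), and 0.86 without replicate 2. Ppp1r1b had r = 0.60 with Drd1 (exact p = 0.13, adjusted p = 0.18) and 0.72 with Drd2 (exact p = 0.064, adjusted p = 0.10), with negative values, -0.47 and -0.72, without replicates 2 and 6. Gad1 with Gad2 had r = 0.66 (exact p = 0.11, adjusted p = 0.15) with rho = -0.07, so that only replicate 2 was low for both. Sst with Npy had r = 0.63 (exact p = 0.054, adjusted p = 0.095). Fos with Nr4a1 had r = 0.72 (exact p = 0.041, adjusted p = 0.078) and Fos with Arc r = -0.24 (exact p = 0.53, adjusted p = 0.55).

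The 12 genes of largest SD in the whole table, chosen by that spread and given as a description, were all outside the lists. Here each gene stands by its most variable probe set above the limit, which need not be its brightest. Its next probe set is the brightest of the others. For Ddx6, an RNA helicase of mRNA decay and storage, Bmpr2, a BMP receptor, Ston2, an endocytic adaptor, Nfix, a transcription factor, Csrnp3 and Stk32c, the lowest array was replicate 9. Ddx6 had 7.37 in replicate 9 and 8.96 in replicate 7 and 10.74 to 11.51 elsewhere (10.35 ± 1.32). Its next probe set, which was brighter with a mean of 10.48, had 10.19 in both arrays with an SD of 0.19. Nfix had 6.97 in replicate 9 and 7.84 in replicate 7 (8.98 ± 0.95), against an SD of 0.16 on its next probe set. For both genes the low values of these arrays were thus larger on 1 probe set than on the next.

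Other genes of this set were extreme in 1 or a few arrays, and some of these on more than 1 probe set. Grb10, an adaptor of insulin receptor signalling, had 7.53 in replicate 7 and 10.42 to 10.81 in the others (10.32 ± 1.05, and an SD of 0.13 without it), and its next probe set had its lowest value, 6.50, in the same array. Abca1, the cholesterol exporter, had 8.16 in replicate 4 and 10.40 to 11.29 in the others (10.70 ± 0.99), and its next probe set was also lowest there, at 7.93. Vof16 had 10.38 in replicate 5 and 6.49 to 7.92 elsewhere (7.64 ± 1.13). Eeig2 had 6.82 in replicate 4 (9.02 ± 1.04), which its next probe set, at 11.35 ± 0.15, did not share. Drg1, a GTP-binding protein, had 8.76 to 9.09 in replicates 3, 4 and 7 and 6.75 to 7.21 in the other 6 arrays (7.58 ± 1.01). Oxt, the oxytocin precursor made by hypothalamic neurons, ran from 6.76 in replicate 9 to 9.86 in replicate 6 (7.80 ± 0.99).

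How far probe sets of 1 gene agree was described over the 3269 genes with at least 2 above the limit. The median r between the brightest and the next probe set across the 9 arrays was 0.30, with 0.43 over the 148 genes whose brightest probe set had an SD over 0.25. In replicate 9, 175 of the 406 low probe sets had a name, and 130 of these shared a gene with another probe set above the limit. In 28 of the 130 another probe set was also low by at least 1, and in 88 the median of the other probe sets lay within 0.25 of the other arrays. In replicate 7 these numbers were 41 with another probe set, 6 also low and 28 within 0.25. Pde10a and Grm5 were thus low in replicate 9 on both probe sets, and Grin2a, Gria2 and Rbfox3 on 1 of 2 above the limit.

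**Figure D5:**
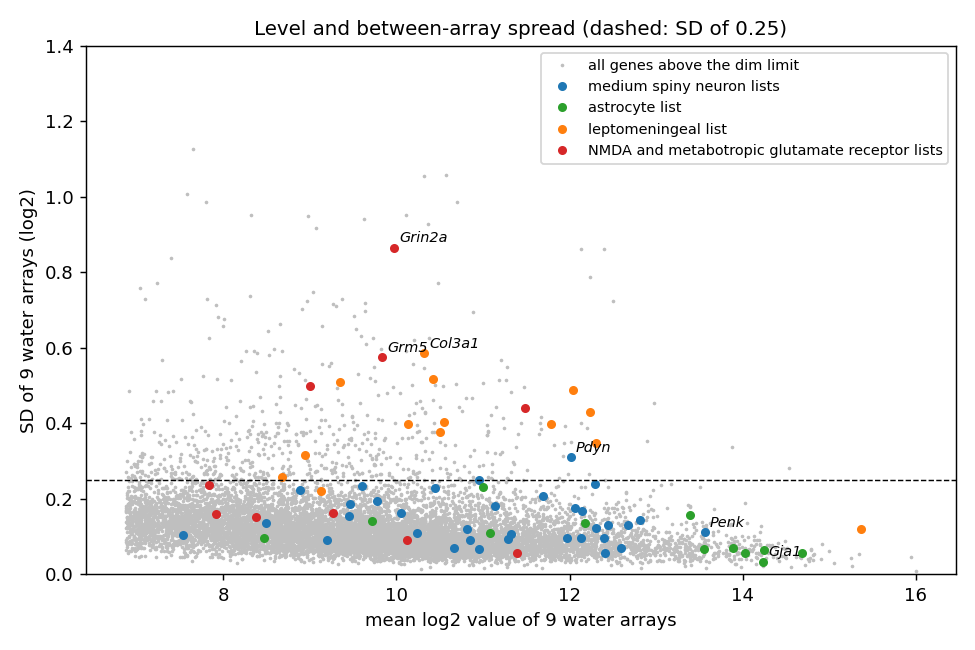
SD over the 9 water arrays (vertical axis, log2) against the mean log2 value (horizontal axis) for 11332 genes above the dim limit (grey), with 4 groups of lists in colour and a broken line at an SD of 0.25. Leptomeningeal genes lie mostly above the line, astrocyte genes below it, and Grin2a and Grm5 have the largest SDs of the 2 glutamate receptor lists shown.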

How the data were processed

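The 9 water arrays of a table of 29 columns were used, each matched to its sample by title. Its log2 expression values were made by the authors with RMA, per the submitters' processing notes; the software, its version and the genome build are not given in the sources used here, and base 2 was inferred from the value range, 4.04 to 16.0. RMA equalises the distributions of arrays, so a shift shared by every transcript is removed. Of 31099 probe sets, 57 control probe sets were left out. A platform table gave 20826 of the rest 1 gene symbol, 436 several and 9780 none. For 20758 probe sets the gene ID was found in the GRCr8 gene table. The symbol given there was used, whether or not it differed. The dimmest 30 percent by mean over the water arrays were left out, which kept 21729 probe sets.

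Means, SDs and correlations were computed in Python 3.11.15 with numpy 2.4.6, pandas 2.3.3 and scipy 1.17.1, with figures by matplotlib 3.10.9, and the spread and correlation steps were tested on simulated data. Correlations were tested by exact two-sided permutation over all orders. No groups were compared, and the p-values test only whether 2 genes vary together across these 9 arrays. The number of arrays limits the precision.

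The members and lists were chosen with earlier results of these data known. Named genes are key genes of each list, the member of largest SD in each, and the 12 genes of largest SD in the table; others, such as Slc35d3, Isl1, Ptprm, Chrm3, Grp, Rprm, Sdha, Aqp1, Rarres2, Ddc, Gabbr1, Abat, Gabrb2 and Slc4a4, were named after their values were seen. Alternatives were centring, quantile normalization, a scaled median absolute deviation, other filters, other probe sets and leaving arrays out; leaving out replicate 2, leaving out replicates 7 and 9, and using the second probe set were chosen after seeing the data.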

Additional observations from a re-analysis of the deposited data

Results flagged for a closer look

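The lowest or highest array lay far from the others, by the gap to its nearest neighbour over the whole range, in 30 of 255 list genes (11.8%) and in 3 of the 12 genes of largest SD; chance flags about 1 in 20 groups. Over all 11332 genes above the dim limit the same gap was met in 860 (7.59%), with replicate 2 as the array in 240 of them (27.9%). In the list genes replicate 2 was the array in 23 of the 30, low in 16 and high in 7.

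Its low values were 12.43 for Ppp1r1b, 11.06 for Gnal, 12.01 for Scn4b, 11.22 for Pdyn, 12.15 for Tac1, 8.99 for Slc35d3, 13.32 for Penk, 9.88 for Adora2a, 9.05 for Gpr6, 9.33 for Ptprm, 8.91 for Nts, 13.24 for Gad1, 9.31 for Gad2, 8.69 for Slc5a7, 12.42 for Htr2c and 8.84 for Calb2, genes of medium spiny neurons, GABA synthesis and interneurons. Its high values were 11.95 for Pdgfra, 10.55 for Col1a1, 11.34 for Aldh1a2, 12.70 for Igfbp2, 9.66 for Slc22a6, 9.59 for Aqp1 and 11.86 for Rprm, of which 4 are leptomeningeal list genes.

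In other arrays, replicate 9 was low for Pde10a at 11.75 and high for Th at 8.004. Replicate 7 was high for Nefm, a neurofilament, at 13.02 and low for Sik1, a kinase gene that responds to cAMP, at 7.54. Replicate 6 was high for Aqp4 at 13.70 and for Cspg4 at 8.26, and replicate 5 was low for Cx3cr1 at 8.06. Among the genes of largest SD, Vof16 was high in replicate 5 at 10.38, Grb10 low in replicate 7 at 7.53 and Abca1 low in replicate 4 at 8.16.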

How the results depend on the processing

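No paired analysis was possible because no groups are compared. The number of probe sets with an SD over 0.25 was 1870, and 1326 to 2293 under centring, quantile normalization, the scaled median absolute deviation, no dim filter and the joint omission of the 3 arrays highest on the second component (replicates 2, 5 and 6). It was 1108 with the dimmest 50 percent left out and 614 with 1 probe set per gene, both of which test fewer features (15521 and 11332). Leaving out 1 array at a time gave 1437 to 2066. The median SD of the list genes was 0.16, and 0.13 to 0.16 under its alternatives. The number of gene pairs past the threshold was 11. It was 4 with Spearman's rho, 2 without replicates 2, 5 and 6, and between 2 and 12 with each array left out, 2 without replicate 2 and 3 without replicate 5. Without replicates 2, 5 and 6, r became -0.37 for Drd1 with Drd2 and -0.11 for Penk with Adora2a; fewer arrays enter there, and the cause was not tested. The median r between probe sets of 1 gene was 0.30, and 0.26 to 0.38 under its alternatives. Of 118 named genes, the SD moved by over 1.5 times in 0 under centring or quantile normalization, in 25 without replicate 2 (all lower), in 8 without replicate 9 (all lower), in 21 without replicates 7 and 9 (all lower) and in 52 with the scaled median absolute deviation (48 lower); with the second probe set it moved in 21 of 34.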
